A study of Mus musculus with 15 samples.

Results

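Lymph node homing and egress receptors are the surface proteins that let a T cell enter a lymphoid organ, stay there, leave it or move on to a tissue. The set described here holds 7 genes, Ccr7, S1pr1, S1pr4, Cd69, Cxcr3, Cxcr4 and Ccr9, taken by symbol from the 17493 genes of the count tables. All 7 passed the low-count filter, which kept 10831 genes in all.

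The study compared 2 ways of stimulating mouse CD8+ T cells with antigen, using 15 bulk RNA libraries in 5 groups of 3. Every library came from CD8+ OT-I T lymphocytes of female OT-1 mice, C57BL/6-Tg(TcraTcrb)1100Mjb/Crl from Charles River, whose transgenic T cell receptor recognises an ovalbumin peptide on MHC class I. The labels give no age. Cells were taken from spleen and lymph nodes, and the pooled organs mean that a level in lymph node cells alone was not measured. The first group was untreated at 0 h. A pair of groups was cultured for 8 h or 22 h with IF-pMHC(SIIT)/IL-2 at 5 ng/ml, which are immunofilaments (IF), synthetic polymer chains carrying peptide-loaded MHC and interleukin-2. The other pair was cultured for 8 h or 22 h with 20000 Flt3 ligand dendritic cells (DC) per well that had been loaded with SIITFEKL, a variant of that peptide. Wells were seeded with 50000 T cells, and viable CD8+ CD103- cells were sorted before RNA was taken. Time in culture and stimulation cannot be told apart in the comparisons with untreated cells, because no culture without a stimulus was analysed here. Interleukin-2 was added only with the filaments, so its part in a difference between IF and DC cannot be told apart from that of the antigen source. The titles number the libraries of each group Don1 to Don3 without saying whether a number is an animal, so p-values measure the spread between these libraries, which may be technical.

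A naive T cell enters lymph nodes through CCR7, which follows the chemokines CCL19 and CCL21, and leaves through S1PR1, which senses sphingosine 1-phosphate (S1P) in lymph and blood. CD69 appears on activated T cells, binds S1PR1 and draws it off the cell surface, which holds the cell in the node. CXCR4 follows CXCL12, CXCR3 follows the interferon-induced chemokines CXCL9 and CXCL10, and CCR9 follows CCL25 to the small intestine. The libraries measured transcripts of these genes, not protein at the surface. Levels are given as normalised read counts (CPM, a library's counts scaled to a common total after TMM normalisation), as mean ± SD with n = 3. The libraries tag the 3′ end of transcripts, so levels were compared within a gene and never between genes.

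Total counts per library ran from 2892874 to 19806730, and each of the 7 genes had at least 66 counts in every library. Replicates 2 and 3 of IF 22 h stood apart from the other 13 libraries, with 0.179% and 0.146% of their counts in mitochondrial ribosomal RNA against 1.82% to 4.49%. Calls that involve IF 22 h are therefore also given without both of them, which leaves 1 library whose spread is taken from the other groups. All 10 T cell markers (Cd3d, Cd3e, Cd3g, Cd247, Cd8a, Cd8b1, Cd2, Cd5, Thy1 and Lck) were detected in every group. Their summed level was 10990 to 11892 CPM in unstimulated libraries and 5036 to 7752 CPM in stimulated ones. Dendritic cell markers, 18 in all, summed to 920.2 to 1273 CPM at DC 8 h, 220.3 to 467 CPM at IF 8 h, 503 to 666 CPM at DC 22 h, 374 to 633 CPM at IF 22 h and 628 to 1496 CPM in unstimulated cells. For their share of counts, IF against DC gave p 0.1 at 8 h and 0.2 at 22 h (exact permutation test, smallest possible p 0.1). Of these markers, Fscn1 (fascin, an actin-bundling protein of mature dendritic cells) was at 142 CPM at DC 8 h and 85.1 CPM at DC 22 h. With IF it was at 0.489 CPM at 8 h and 23.7 CPM at 22 h. Its log2 fold change at IF 22 h against unstimulated cells was 3.60 (adjusted p 0.0158 by edgeR). It was 1.56 without IF 22 h replicates 2 and 3. Of 14 markers tested, 0 were higher and 6 lower with IF than with DC at 8 h, where 0.665% of all genes were called. At 22 h 1 was higher (Itgax, 2.32) and 3 were lower, where 2.43% were called. Zbtb46, Ccl17 and Lyz2 were at 0 in unstimulated cells, and Zbtb46, Batf3 and Il12b were at 0 at IF 8 h.

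In the 28 comparisons of the 7 genes with unstimulated cells, 10 passed the threshold as lower and 0 as higher, where 3.44% to 4.72% of all genes passed as lower in each group. The 4 comparisons share their control libraries. The 7 genes did not follow a single course. Cd69 fell late under both stimuli, Cxcr3 fell early, Cxcr4 fell with DC, Ccr9 fell with IF and at 8 h with DC, Ccr7 fell at IF 22 h, and S1pr1 and S1pr4 did not pass the test anywhere. The plot of fold changes against unstimulated cells shows these courses side by side.

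**Figure D1:**
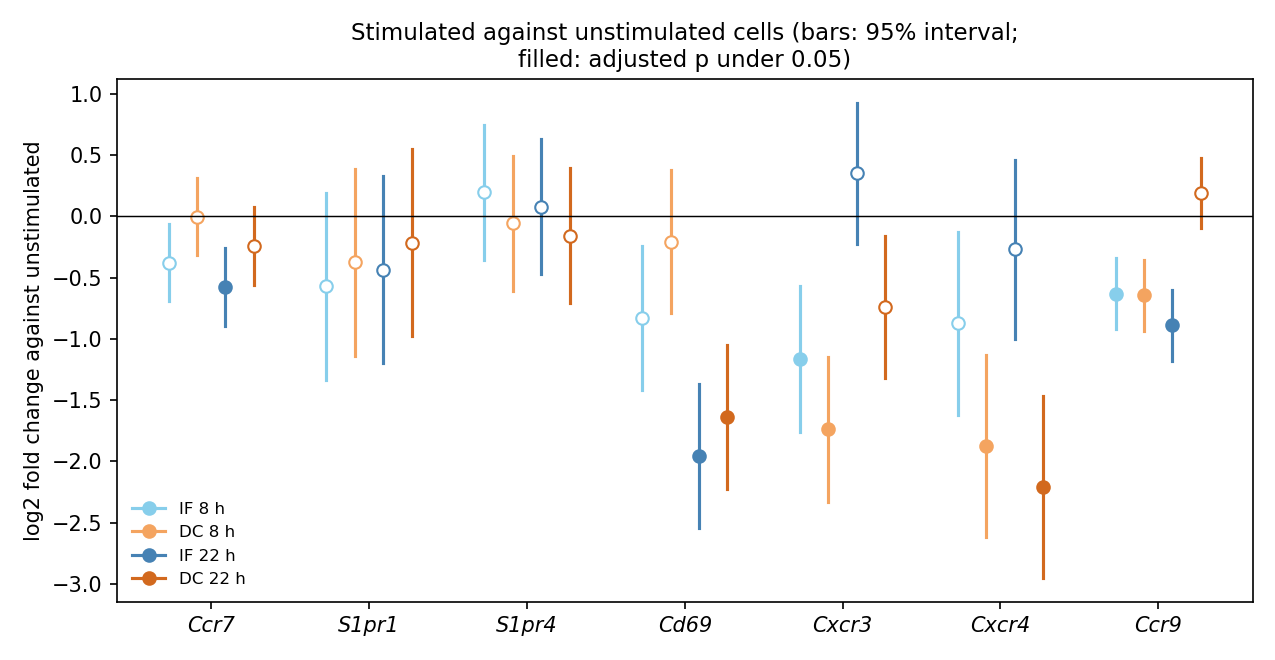
Log2 fold change (y axis) of the 7 genes (x axis) in each stimulated group against unstimulated cells, with bars for the 95% interval and filled points for an adjusted p under 0.05 by edgeR. Cd69 reached −1.96 at IF 22 h and −1.64 at DC 22 h, Cxcr4 reached −2.21 at DC 22 h, and the intervals of S1pr1 and S1pr4 cross 0 in every group.

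Ccr7 (chr11:99144196-99155077, minus strand, GRCm38, GENCODE vM21), the lymph node entry receptor, kept a high level under DC at 8 h and was lowest under IF at 22 h. Unstimulated libraries read 328, 342 and 314 CPM. At IF 8 h they read 246, 274 and 237 CPM, and at IF 22 h 206, 246 and 207 CPM. All 6 IF libraries lay below all unstimulated ones. Of all genes, 16.4% lay apart in that direction at IF 8 h and 14.7% at IF 22 h. With DC the values were 309, 330 and 344 CPM at 8 h and 283, 227 and 322 CPM at 22 h, so both DC groups overlapped the unstimulated range. The order of the means was unstimulated (328 ± 14.1), DC 8 h (328 ± 17.7), DC 22 h (277 ± 47.4), IF 8 h (253 ± 19.2) and IF 22 h (219.8 ± 23.1), and each neighbouring pair overlapped.

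Against unstimulated cells Ccr7 fell at IF 22 h, by 0.58 ± 0.15 (SE) on the log2 scale, with an adjusted p of 0.0306 by edgeR. The call was lost without IF 22 h replicate 1 (adjusted p 0.0644) or 3 (0.138), and without unstimulated replicate 1 (0.0802), 2 (0.108) or 3 (0.0705). It was also lost without IF 22 h replicates 2 and 3 together (log2 fold change −0.67, adjusted p 0.250), with scaling by library totals only (0.120), without the low-count filter (0.0616) and with thinned counts (0.05002). At IF 8 h the log2 fold change was −0.38 ± 0.15 and did not pass (adjusted p 0.141). With DC it was −0.00 at 8 h (95% interval −0.32 to 0.32) and −0.24 at 22 h (−0.56 to 0.07). The direct IF against DC difference was −0.38 ± 0.15 at 8 h and −0.34 ± 0.15 at 22 h, and neither passed (adjusted p 0.470 and 0.287). At 8 h the groups did not overlap, as was so for 7.7% of all genes in that direction. The 22 h difference was −0.43 without IF 22 h replicates 2 and 3 (adjusted p 0.971). Mature dendritic cells are known to express CCR7, and their part in the DC values was not tested.

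S1pr1 (chr3:115710433-115715072, minus strand), the receptor by which T cells leave lymph nodes, was steady in unstimulated cells and spread widely in stimulated ones. The unstimulated libraries read 522, 558 and 539 CPM (540 ± 18.2). The 3 IF 8 h libraries read 301, 441 and 349 CPM (364 ± 70.8), and those of IF 22 h read 472, 432 and 295 CPM (400 ± 92.7). With DC the values were 463, 263 and 522 CPM at 8 h (416 ± 136) and 539, 168 and 688 CPM at 22 h (465 ± 268). Every unstimulated value lay above every value of IF 8 h, DC 8 h and IF 22 h. Of all genes, 16.4%, 15.2% and 14.7% lay apart in that direction. At DC 8 h the nearest values were 522.0 CPM in unstimulated cells and 521.8 CPM with DC. DC 22 h held both the lowest and the highest of all 15 libraries. The means of the stimulated groups, in the order DC 22 h, DC 8 h, IF 22 h and IF 8 h, differed between neighbours by less than the larger SD.

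The log2 fold change of S1pr1 against unstimulated cells was −0.57 at IF 8 h (95% interval −1.34 to 0.19), −0.38 at DC 8 h (−1.14 to 0.39), −0.43 at IF 22 h (−1.20 to 0.33) and −0.22 at DC 22 h (−0.98 to 0.55). The adjusted p-values by edgeR were 0.375, 0.610, 0.550 and 0.781. These intervals hold both no change and a fall to under the level of IF 8 h, so a loss of the transcript of that size was not detectable at DC 22 h. With only IF 8 h and unstimulated libraries in the fit, the IF 8 h difference of −0.57 passed (adjusted p 0.0176). IF against DC differed by −0.19 at 8 h (−0.96 to 0.57) and by −0.22 at 22 h (−0.98 to 0.54). The IF 22 h difference from unstimulated cells was −0.19 (adjusted p 0.960) and that from DC 22 h was 0.02 without IF 22 h replicates 2 and 3.

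S1pr4 (chr10:81497747-81500132, minus strand), a lymphocyte S1P receptor, overlapped between all groups. Its values were 196, 220.3 and 196 CPM in unstimulated cells, 220.3, 283 and 199 CPM at IF 8 h, 189.9, 144 and 254 CPM at DC 8 h, 202, 229.9 and 215 CPM at IF 22 h, and 220.5, 99.9 and 229 CPM at DC 22 h. The lowest value of both DC groups belonged to replicate 2. Group means ran in the order IF 8 h (234 ± 43.5), IF 22 h (216 ± 14.2), unstimulated (204 ± 14.0), DC 8 h (196 ± 55.3) and DC 22 h (183 ± 72.1), and no neighbours were apart by more than the larger SD. Its log2 fold changes against unstimulated cells lay between −0.16 and 0.20, with adjusted p-values by edgeR of 0.706 or more. At IF 22 h the log2 fold change was −0.02 without IF 22 h replicates 2 and 3.

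Cd69 (chr6:129267325-129275436, minus strand), whose protein removes S1PR1 from the surface, was lowest at 22 h under both stimuli. Unstimulated libraries read 229, 153 and 250.4 CPM (211 ± 50.9). At 8 h the IF values were 112, 105 and 138 CPM (118 ± 17.3) and the DC values 135, 291 and 121 CPM (182 ± 94.6). At 22 h they were 49.2, 52.7 and 60.7 CPM with IF (54.2 ± 5.90) and 59.98, 79.97 and 63.5 CPM with DC (67.8 ± 10.7). All 6 libraries of 22 h lay below the other 9. Against unstimulated cells alone, 14.7% of all genes lay apart as lower at IF 22 h and 14.2% at DC 22 h. DC 8 h replicate 2 was the highest of all libraries, and the 2 other DC 8 h libraries lay below the unstimulated range.

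Cd69 fell by 1.96 ± 0.28 (SE) on the log2 scale at IF 22 h (adjusted p 0.000575 by edgeR), and by 1.64 ± 0.28 at DC 22 h (adjusted p 0.00199). Both calls held in every fit that left out 1 library, and the IF 22 h call also held without replicates 2 and 3 (log2 fold change −2.10, adjusted p 0.0478). Scaled to the summed T cell markers, the DC 22 h difference was −0.66 and did not pass (adjusted p 0.0877). The IF 22 h call held on that scale (−1.25, adjusted p 0.00886). At IF 8 h the difference of −0.83 ± 0.28 did not pass (adjusted p 0.0832), although DESeq2 (0.0409) and a fit with only these 2 groups (0.0107) called it. At DC 8 h it was −0.21 (95% interval −0.79 to 0.38). IF and DC differed by −0.62 at 8 h (−1.21 to −0.04, adjusted p 0.554) and by −0.32 at 22 h (−0.91 to 0.27, adjusted p 0.653).

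The unstimulated cells, in which Cd69 was high, also had high levels of immediate early and heat shock genes. Fos, a transcription factor switched on within minutes of a stimulus, was at 292 ± 95.4 CPM in them and at 1.29 to 5.23 CPM in the stimulated group means, and Jun was at 662 ± 194 CPM against 5.84 to 87.1 CPM. Of 8 such genes, a list chosen with earlier results of these data known, 6, 6, 6 and 7 were lower at IF 8 h, DC 8 h, IF 22 h and DC 22 h, beside 4.72%, 4.07%, 3.44% and 4.35% of all genes. At IF 22 h 5 were lower without IF 22 h replicates 2 and 3, where 0.479% of all genes were. Cd69 is known to respond to the same signals, and the part of this difference in the Cd69 result was not tested.

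**Figure D2:**
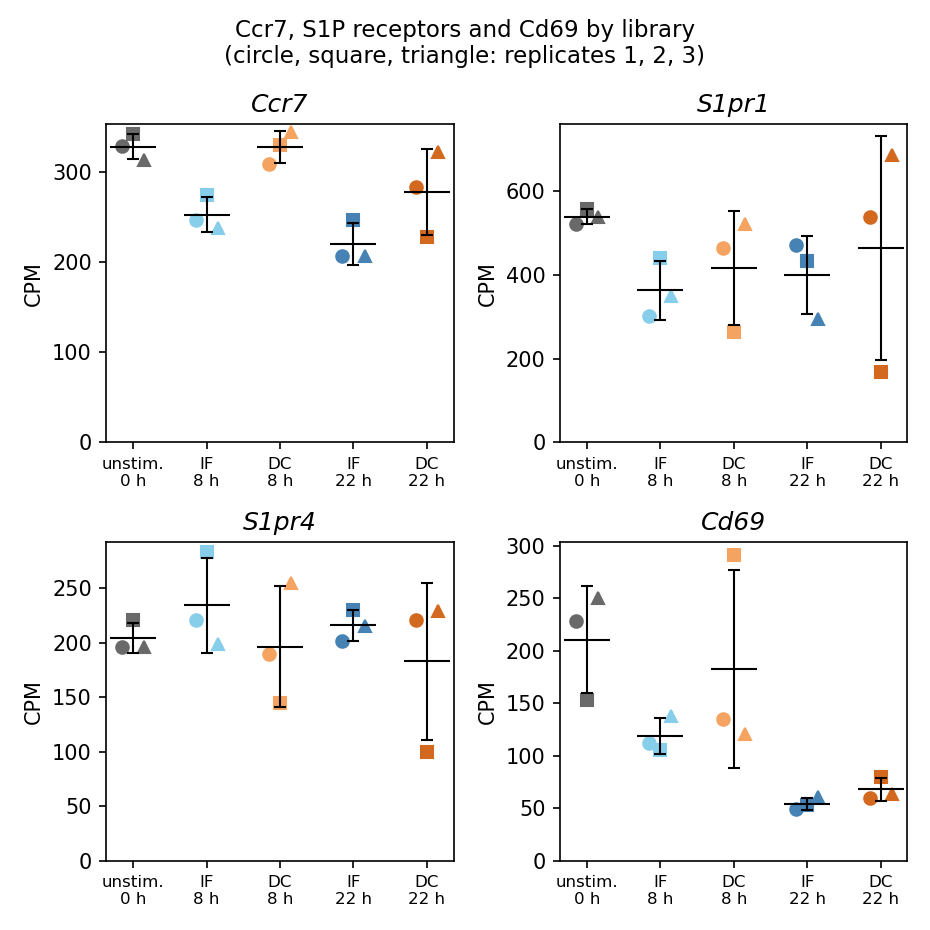
Normalised read count (CPM, y axis) of Ccr7, S1pr1, S1pr4 and Cd69 in each library, by group (x axis), with circle, square and triangle for replicates 1, 2 and 3, and bars for mean ± SD. All 22 h libraries of Cd69 lie between 49.2 and 79.97 CPM, below the other 9, whereas S1pr1 at DC 22 h spreads from 168 to 688 CPM.

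The 3 remaining receptors guide T cells beyond the lymph node entry step. They are the members whose levels differed between IF and DC at 22 h, and their promoter sequence is shown for that reason. RefSeq promoter entries (GRCm38.p6) matched 4 of the 7 genes, these 3 and S1pr4. Each line gives the part of the 250 bases before the RefSeq transcript start that lies outside GENCODE exons, 5′ to 3′ on the gene's strand, at chrX:101734270-101734397 (minus) for Cxcr3, chr1:128592300-128592549 (minus) for Cxcr4 and chr9:123766961-123767168 (plus) for Ccr9. Capitals mark a match to 1 of the 5 motifs searched.
Cxcr3: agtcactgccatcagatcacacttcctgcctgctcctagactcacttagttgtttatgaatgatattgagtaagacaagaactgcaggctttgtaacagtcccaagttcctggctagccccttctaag
Cxcr4: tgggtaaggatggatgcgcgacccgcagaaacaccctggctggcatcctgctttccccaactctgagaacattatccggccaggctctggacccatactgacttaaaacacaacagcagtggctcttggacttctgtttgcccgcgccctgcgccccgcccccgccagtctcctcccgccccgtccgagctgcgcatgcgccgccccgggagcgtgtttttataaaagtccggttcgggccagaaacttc
Ccr9: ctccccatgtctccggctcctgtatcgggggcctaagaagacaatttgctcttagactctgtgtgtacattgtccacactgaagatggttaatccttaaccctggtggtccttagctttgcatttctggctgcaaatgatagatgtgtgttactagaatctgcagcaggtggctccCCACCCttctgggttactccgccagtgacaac
The motifs, searched on both strands of the full 250 bases, were the KLF core CCACCC, the FOXO site GTAAACA, the AP-1 site TGANTCA, the NFAT core GGAAAA and the STAT site TTCNNNGAA. Ccr9 held 1 KLF core, 74 bases before the start, and no other motif. Cxcr3 and Cxcr4 held none of the 5 in this window. S1pr4 held 1 KLF core and 1 NFAT core. Among 32851 promoter windows of the same length, 28.1% held a KLF core, 20.4% an NFAT core, 7.02% a STAT site, 6.75% an AP-1 site and 3.17% a FOXO site. Klf2, which encodes a KLF family factor known to drive S1pr1 in naive T cells, was at 928 ± 68.0 CPM in unstimulated cells and 618 ± 285 CPM at DC 22 h, and its difference did not pass the test in any comparison.

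Cxcr3 (chrX:101731535-101734269, minus strand), the receptor for CXCL9 and CXCL10, fell at 8 h under both stimuli and overlapped the unstimulated values again at IF 22 h. Unstimulated libraries read 62.5, 50.4 and 47.9 CPM (53.6 ± 7.81). The 8 h values were 30.7, 21.9 and 18.8 CPM with IF (23.8 ± 6.19) and 18.9, 12.9 and 16.3 CPM with DC (16.0 ± 3.01), all below every unstimulated value. Of all genes, 16.4% lay apart in that direction at IF 8 h and 15.2% at DC 8 h. At 22 h the values were 47.5, 84.1 and 74.0 CPM with IF (68.5 ± 18.9) and 41.7, 20.8 and 34.0 CPM with DC (32.2 ± 10.6). The order of the means was IF 22 h, unstimulated, DC 22 h, IF 8 h and DC 8 h, of which unstimulated and DC 22 h were the only neighbours whose values did not overlap.

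The log2 fold change of Cxcr3 against unstimulated cells was −1.17 ± 0.28 (SE) at IF 8 h (adjusted p 0.0198 by edgeR) and −1.74 ± 0.28 at DC 8 h (adjusted p 0.00132). The IF 8 h call was lost without IF 8 h replicate 2 (adjusted p 0.0665) or 3 (0.0916), or without unstimulated replicate 1 (0.0734). Scaled to the summed T cell markers it was lost too (−0.18, adjusted p 0.569). At 22 h the differences of 0.35 with IF (95% interval −0.22 to 0.93) and −0.74 with DC (−1.32 to −0.16, adjusted p 0.116) did not pass. Without IF 22 h replicates 2 and 3 the IF 22 h difference turned to −0.18. From 8 h to 22 h Cxcr3 rose by 1.52 ± 0.28 with IF (adjusted p 0.0156). That call was lost without IF 22 h replicate 2 (0.0895) or 3 (0.0754), without IF 8 h replicate 2 (0.0598) or 3 (0.109), and without both IF 22 h replicates 2 and 3 (0.784). With only the 2 IF groups and the replicate block in the fit, the rise was 1.49 and did not pass (adjusted p 0.0997). With DC the change from 8 h to 22 h was 1.00 ± 0.28 and did not pass (adjusted p 0.166). It did with DESeq2 (0.0402) and without the low-count filter (0.0128). The fit that pairs the DC libraries by number called it as well (0.96 ± 0.19, adjusted p 0.0440).

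Cxcr4 (chr1:128588199-128592293, minus strand), the CXCL12 receptor, was low in every DC library. Its levels were 51.5, 82.0 and 86.8 CPM in unstimulated cells (73.5 ± 19.1). With DC they were 21.8, 11.2 and 27.2 CPM at 8 h (20.0 ± 8.13) and 13.3, 8.52 and 25.5 CPM at 22 h (15.8 ± 8.74). With IF they were 45.3, 42.8 and 31.9 CPM at 8 h (40.0 ± 7.14) and 63.9, 67.6 and 51.3 CPM at 22 h (61.0 ± 8.54). Every DC library lay below every IF and every unstimulated library, and the IF 22 h values overlapped the unstimulated ones. Of all genes, 15.2% at DC 8 h and 14.2% at DC 22 h lay apart below unstimulated cells. IF lay apart above DC for 5.8% of all genes at 8 h and 10.7% at 22 h. In the order unstimulated, IF 22 h, IF 8 h, DC 8 h and DC 22 h, the values of IF 22 h and IF 8 h, and those of IF 8 h and DC 8 h, did not overlap.

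Cxcr4 fell by 1.87 ± 0.35 (SE) on the log2 scale at DC 8 h (adjusted p 0.00441 by edgeR) and by 2.21 ± 0.35 at DC 22 h (adjusted p 0.00137), and both calls held in every fit that left out 1 library. With IF the differences were −0.87 ± 0.35 at 8 h (adjusted p 0.148) and −0.27 at 22 h (95% interval −0.997 to 0.46, adjusted p 0.722). The latter was −0.20 without IF 22 h replicates 2 and 3 (adjusted p 0.959). The IF 8 h difference passed with only these 2 groups in the fit (adjusted p 0.0226). Cxcr4 had 77 to 566 reads per library apart from 1006 in IF 22 h replicate 3.

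Ccr9 (chr9:123678439-123784330, plus strand), the gut-homing receptor for CCL25, had close replicates and parted between the stimuli at 22 h. Unstimulated libraries read 271, 236 and 295 CPM (267 ± 29.6). At 8 h IF and DC gave nearly the same values, 173, 169 and 175 CPM (172 ± 3.38) and 169, 175 and 168 CPM (171 ± 3.87). At 22 h they were apart, with 160.3, 129 and 143 CPM for IF (144 ± 15.5) and 312, 296 and 306 CPM for DC (305 ± 8.05). All DC 22 h libraries lay above all others and all IF 22 h libraries below all others. Between these 2 groups, 9.11% of all genes lay apart as lower with IF. Neighbours in the order DC 22 h, unstimulated, IF 8 h, DC 8 h and IF 22 h did not overlap, except IF 8 h and DC 8 h.

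Ccr9 fell by 0.63 ± 0.14 (SE) on the log2 scale at IF 8 h (adjusted p 0.0105 by edgeR), by 0.65 ± 0.14 at DC 8 h (0.00830) and by 0.89 ± 0.14 at IF 22 h (0.000920). Both 8 h calls were lost without unstimulated replicate 3 (adjusted p 0.0529 and 0.0514) and when libraries were scaled by their totals only (0.0890 and 0.0976). Scaled to the summed T cell markers, the IF 22 h difference was −0.17 and did not pass (adjusted p 0.415). The IF 22 h call was lost without IF 22 h replicates 2 and 3 (−0.74, adjusted p 0.136). At DC 22 h the difference of 0.19 did not pass (95% interval −0.10 to 0.48, adjusted p 0.435), whereas scaled by library totals only it was 0.52 and did (adjusted p 0.0241). From 8 h to 22 h Ccr9 rose by 0.84 ± 0.14 with DC (adjusted p 0.0126), a call lost without replicate 1 of DC 22 h (0.0607) or of DC 8 h (0.0609), and kept in the fit that pairs the DC libraries by number (0.83 ± 0.11, adjusted p 0.0133). Ccr9 shares exonic bases in GENCODE vM21 with Slc6a20a (22 bases), Gm17200 (269) and AC165425.1 (1932), and reads of these may have been counted for it, as the use of strand is not given in the sources used here. Plasmacytoid dendritic cells are known to express Ccr9, and their marker Siglech had a mean of 0.670 CPM in unstimulated cells, 1.00 CPM at DC 8 h, 2.50 CPM at DC 22 h and 0.550 CPM at IF 22 h. These levels are near the floor, as 3 counts make 0.440 to 0.698 CPM in unstimulated libraries and 0.256 to 0.341 CPM at DC 22 h. The part of plasmacytoid dendritic cells in the Ccr9 result was not tested.

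**Figure D3:**
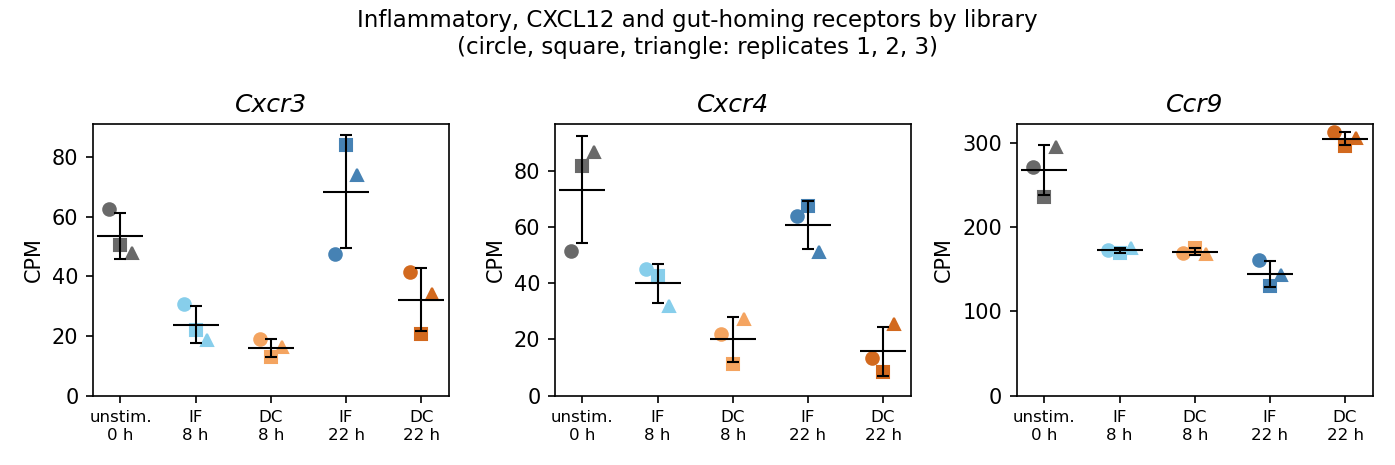
Normalised read count (CPM, y axis) of Cxcr3, Cxcr4 and Ccr9 in each library, by group (x axis), with circle, square and triangle for replicates 1, 2 and 3, and bars for mean ± SD. Cxcr4 stays between 8.52 and 27.2 CPM in all DC libraries, and Ccr9 at 22 h lies between 129 and 160.3 CPM with IF and between 296 and 312 CPM with DC.

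Set against all genes tested, the 7 genes held 2 lower calls at IF 8 h (Cxcr3 and Ccr9), where 7.76% of genes passed in either direction and 4.72% as lower. They held 3 lower calls at DC 8 h (Cxcr3, Cxcr4 and Ccr9; 6.82% of genes, 4.07% as lower). At IF 22 h 3 were lower (Ccr7, Cd69 and Ccr9; 6.08%, 3.44% as lower), and at DC 22 h 2 were lower (Cd69 and Cxcr4; 7.76%, 4.35% as lower). The median log2 fold change over the 7 genes was −0.63, −0.38, −0.43 and −0.24 in that order, beside 0.02, 0.04, 0.01 and 0.04 over all genes. Only 1 member, Ccr9, passed in 3 of these 4 comparisons. T cell markers moved in the same direction: 7, 9, 6 and 7 of 10 were lower in that order, with median log2 fold changes of −0.81, −1.02, −0.62 and −1.02. At IF 22 h without IF 22 h replicates 2 and 3, 2 of them were lower, as was 1 of the 7 receptors, where 0.479% of all genes were. On a scale set by the summed T cell markers, which moved the median of all genes to 1.00 at IF 8 h, Ccr9 there was at 0.35, above 0 and below that median. In bulk RNA, fewer cells with a transcript and less of it per cell cannot be told apart.

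The comparison of both stimuli at the same time asked how filament-driven activation differed from that by dendritic cells. At 22 h Cxcr4 and Cxcr3 were higher and Ccr9 lower with IF, while no member passed at 8 h. These 3 of 7 genes stood beside 2.43% of all genes called at 22 h (1.23% higher and 1.2% lower), and 0 of 7 beside 0.665% at 8 h by edgeR. At an unadjusted p under 0.05, 3 of the 7 passed at 8 h (Ccr7, Cd69 and Cxcr4), as did 896 of all 10831 genes. DESeq2 also called 0 of the 7, and edgeR without the low-count filter called 1, Cxcr4 (adjusted p 0.0207).

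Cxcr4 was higher with IF at 22 h by a log2 fold change of 1.94 ± 0.35 (SE; adjusted p 0.00795 by edgeR), or 3.84-fold. Without DC 22 h replicate 1 the adjusted p was 0.0501, and without IF 22 h replicates 2 and 3 the difference was 2.01 with an adjusted p of 0.154. Cxcr3 was higher by 1.09 ± 0.27 (adjusted p 0.0441). It missed the threshold without DC 22 h replicate 1 (0.0507), 2 (0.117) or 3 (0.0802), without IF 22 h replicate 2 (0.243) or 3 (0.167), without both of the last (0.56, adjusted p 0.975), and with scaling by library totals only (0.96, adjusted p 0.0677). Ccr9 was lower by 1.08 ± 0.14 (adjusted p 0.000491), or 2.11-fold, and passed in all 6 fits that left out 1 library. Without IF 22 h replicates 2 and 3 it was at −0.93 with an adjusted p of 0.147. With only IF 22 h and DC 22 h in the fit, Cxcr4 (adjusted p 0.0688) and Cxcr3 (0.201) missed the threshold. With the replicate number added as a block there, Ccr9 missed it too (−1.11, adjusted p 0.130). Scaled to the summed T cell markers, Cxcr3 was at 0.84 and did not pass (adjusted p 0.0851).

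At 8 h the differences were 1.00 for Cxcr4 (95% interval 0.24 to 1.76, adjusted p 0.367), 0.57 for Cxcr3 (−0.03 to 1.18, adjusted p 0.636) and 0.01 for Ccr9 (−0.28 to 0.30, adjusted p 0.999). The Ccr9 interval at 8 h does not reach the −1.08 seen at 22 h. Whether the IF-DC difference itself changed from 8 h to 22 h was tested as an interaction. For Ccr9 it changed by −1.09 ± 0.19, with an unadjusted p of 3.25e-05 and an adjusted p of 0.0879 by edgeR. No gene of the 10831 passed this test, 0%, while 858 had an unadjusted p under 0.05, and of the 7 members only Ccr9 did. DESeq2 called Ccr9 (adjusted p 5.04e-06), as did edgeR without the low-count filter (0.0206) and without IF 22 h replicate 1 (0.00336). The 11 other fits that left out 1 library did not call it (adjusted p up to 0.400), nor did the fits with the replicate block (0.133), with only the groups compared (0.166) or with scaling by library totals (0.0993). The change was −0.94 without IF 22 h replicates 2 and 3 (adjusted p 0.99986). The interaction was 0.94 for Cxcr4 (−0.12 to 2.00) and 0.52 for Cxcr3 (−0.32 to 1.35), so the IF-DC difference of these 2 receptors was not shown to depend on time. Of 14 dendritic cell markers tested, 3 were lower and 1 (Itgax) higher with IF than with DC at 22 h, beside 1.2% and 1.23% of all genes. Of 10 T cell markers, 4 were higher with IF than with DC at 22 h (median log2 fold change 0.30), beside 1.23% of all genes. In the fit without IF 22 h replicates 2 and 3 0 of these markers passed, but so few genes passed there (8 of 11889) that this says little about them. B cell markers, 4 in all, summed to 18.3 to 34.5 CPM at IF 22 h and 4.76 to 12.5 CPM at DC 22 h. The 6 markers of CD4 T cells, natural killer cells and granulocytes summed to 11.8 to 14.9 CPM at IF 22 h and 0.664 to 6.49 CPM at DC 22 h. At IF 22 h Foxp3, S100a8 and S100a9 were at 0, and at DC 22 h Ncr1, Cd4, Foxp3, S100a8 and S100a9 were. The part of any of these in the results was not tested.

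**Figure D4:**
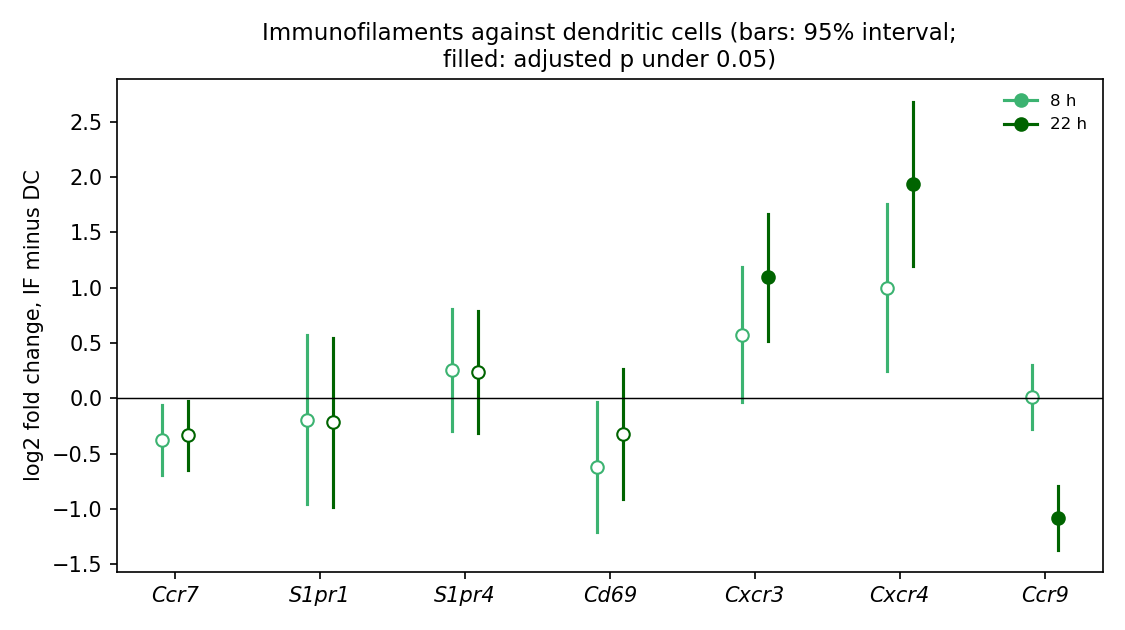
Log2 fold change of IF against DC (y axis, IF minus DC) for the 7 genes (x axis) at 8 h and 22 h, with bars for the 95% interval and filled points for an adjusted p under 0.05 by edgeR. The 22 h values of Cxcr4 (1.94), Cxcr3 (1.09) and Ccr9 (−1.08) are the filled points, and Ccr9 lies at 0.01 at 8 h.

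Between 8 h and 22 h, 1 of the 7 genes rose with IF (Cxcr3, where 1.12% of all genes were called, 0.637% as higher). With DC 1 rose (Ccr9) and 1 fell (Cd69), where 0.48% of all genes were called, 0.379% as higher and 0.102% as lower. Cd69 fell by 1.43 ± 0.28 with DC (adjusted p 0.0283 by edgeR). That call was lost without replicate 1, 2 or 3 of DC 22 h (adjusted p 0.164, 0.0591 and 0.0528) and without replicate 1 or 2 of DC 8 h (0.0525 and 0.104), and kept in the fit that pairs the DC libraries by number (−1.33 ± 0.18, adjusted p 0.0133). With IF Cd69 was at −1.13 ± 0.28 (adjusted p 0.0665), a difference that DESeq2 called (0.00753), and at −1.26 without IF 22 h replicates 2 and 3 (adjusted p 0.742). With only the 2 DC groups in the fit and no pairing, Cd69 (0.288) and Ccr9 (0.222) missed the threshold.

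In a group of 3 libraries, 2 stand at an end for every gene, and the share over all genes was not measured. DC 8 h replicate 3 was the lowest in 2 and the highest in 4 of the 7 genes. IF 8 h replicate 3 and IF 22 h replicate 1 were each the lowest in 4 and the highest in 2. Replicate 2 was the lowest library of DC 8 h in 4 of the 7 genes (S1pr1, S1pr4, Cxcr3 and Cxcr4) and the lowest of DC 22 h in 6, all but Cd69. For Cd69 it was the highest at both times. On the log2 scale its S1pr1 level deviated from the group mean by −0.60 at 8 h and −1.24 at 22 h, and its Cxcr4 deviations were −0.74 and −0.73. For Cd69 the deviations were 0.79 and 0.25. Ccr9 deviated by no more than 0.04 in this replicate at either time. Replicate 3 deviated further than replicate 2 for Cxcr4 at 22 h (0.83), for Ccr7 at 8 h (0.07 against 0.01, replicate 2 being the middle library there) and, by a small margin, for S1pr4 at 8 h (0.41 against −0.40).

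**Figure D5:**
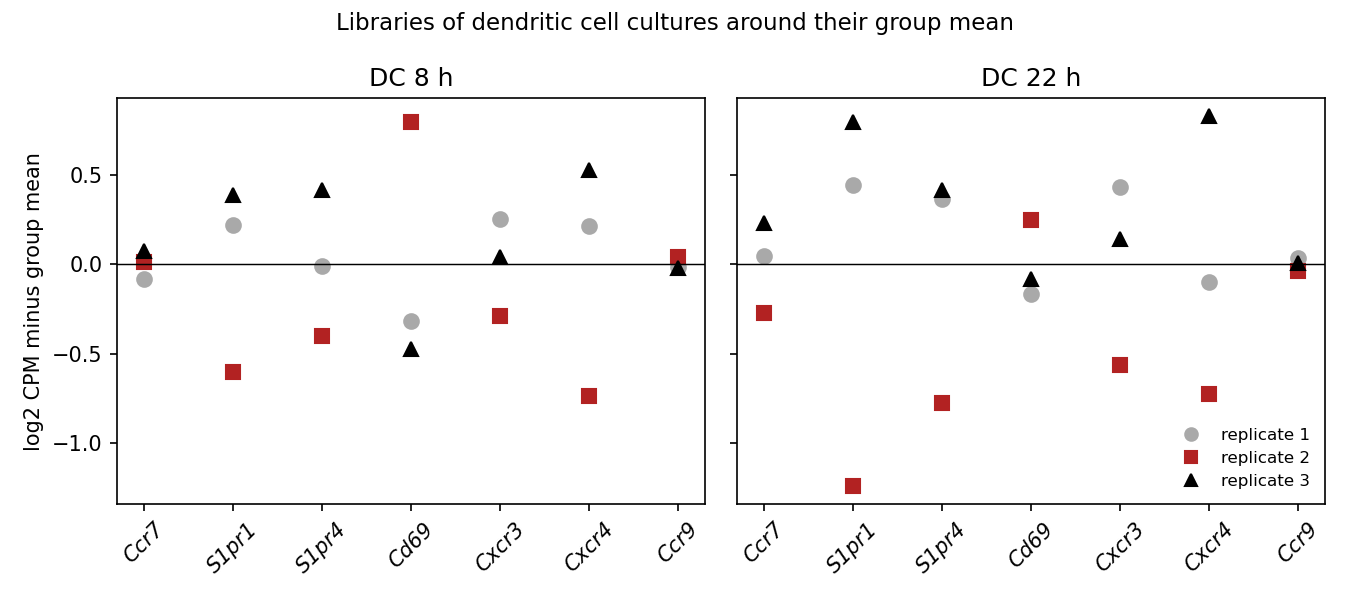
Deviation of each DC library from its group mean (y axis, log2 CPM) for the 7 genes (x axis) at 8 h and 22 h, with a symbol for each replicate. Replicate 2 lies lowest in S1pr1 at both times (−0.60 and −1.24) and highest in Cd69 (0.79 and 0.25).

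Over the 15 libraries, levels of the 7 genes varied together only in part. The Pearson correlation of log2 CPM was 0.72 between S1pr1 and S1pr4, 0.67 between Cxcr3 and Cxcr4 and 0.64 between Ccr7 and Cd69, and Ccr9 correlated with no other member above 0.39. These describe 15 libraries that share groups and scaling. The genes most like each member, searched among 6953 genes with a mean of at least 10 CPM, were Ostf1 (0.91), Cd82 (0.89) and Abcg1 (0.86) for Ccr7. For S1pr1 they were Scml4 (0.94), Dgka (0.93) and Cd37 (0.92), and for S1pr4 Fam105a (0.92), Gabarap (0.90) and Maf1 (0.90). Cd69 was most like Smndc1 (0.91), H3f3b (0.89) and Ccdc9 (0.88), and Cxcr3 most like Cotl1 (0.92), 4930453N24Rik (0.91) and Gpi1 (0.91). Cxcr4 was most like Ahnak (0.95), Fxyd5 (0.92) and Hcst (0.92), and Ccr9 most like Hmgb2 (0.86), Tnfaip8 (0.85) and Taf3 (0.83). Ahnak, which encodes a large scaffold protein, had 71.1 ± 2.30 CPM at IF 22 h and 19.3 ± 7.75 CPM at DC 22 h.

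Of 18 other chemokine receptors listed, 9 were tested. At IF 8 h 0 passed, at DC 8 h 1 was higher and 1 lower, at IF 22 h 1 was higher and 1 lower, and at DC 22 h 1 was lower, beside 6.08% to 7.76% of all genes in either direction. Cxcr5, the receptor that draws lymphocytes to B cell follicles, rose from 8.03 CPM to 17.8 CPM at DC 8 h (adjusted p 0.0479 by edgeR) and to 21.7 CPM at IF 22 h (0.0177). Xcr1, a receptor of cross-presenting dendritic cells, fell from 24.1 CPM to 1.23 CPM at IF 22 h and 0.198 CPM at DC 22 h (adjusted p 0.0184 and 0.00223). Neither gene passed at IF 22 h without IF 22 h replicates 2 and 3, with Cxcr5 at 1.61 (adjusted p 0.143) and Xcr1 at −5.29 (0.148) on the log2 scale.

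Among the 6 tested genes of the S1P pathway, S1pr2 and S1pr5 changed. S1pr2, a receptor that opposes migration towards S1P, rose from 1.41 CPM to 8.38 CPM at IF 8 h (adjusted p 0.0222 by edgeR) and 7.64 CPM at DC 8 h (0.0265). S1pr5, an egress receptor of natural killer cells and effector T cells, fell from 11.5 CPM to 1.48 CPM at DC 8 h (0.00688) and 2.91 CPM at DC 22 h (0.0451). The counts of higher and lower genes were 1 and 0 at IF 8 h, 1 and 1 at DC 8 h, 0 and 0 at IF 22 h and 0 and 1 at DC 22 h, again beside 6.08% to 7.76% of all genes. Ncr1, a marker of natural killer cells, was at 0 in both DC groups and at IF 8 h. Klrb1c, the other natural killer cell marker listed, had counts in every group. The markers of CD4 T cells, natural killer cells and granulocytes summed to 9.10 to 13.5 CPM in unstimulated cells and 3.47 to 9.54 CPM at DC 8 h. Only 1 of them was tested, with a log2 fold change of −0.30 at DC 8 h and −0.54 at DC 22 h, and it passed in neither. The part of natural killer cells in the S1pr5 result was not tested.

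Homing adhesion molecules fell in part. Of 10 tested, 5, 3, 3 and 3 were lower and 0 were higher at IF 8 h, DC 8 h, IF 22 h and DC 22 h, beside 4.72%, 4.07%, 3.44% and 4.35% of all genes as lower, with median log2 fold changes of −0.47, −0.50, −0.05 and −0.53. Itgb7, the beta chain of the gut-homing integrin, went from 298 CPM to 77.1 CPM at IF 8 h, 84.9 CPM at DC 8 h, 153 CPM at IF 22 h and 138 CPM at DC 22 h (adjusted p 7.22e-05, 0.000139, 0.0169 and 0.00527 by edgeR). Itgb2, the beta chain of LFA-1, was lower in all 4 as well. Itgal, the alpha chain of LFA-1, was lower at 8 h with both stimuli and at DC 22 h, and higher with IF than with DC at 22 h (395 against 235 CPM, adjusted p 0.0165). The calls that involve IF 22 h were lost without IF 22 h replicates 2 and 3, with Itgb7 at −1.06 (adjusted p 0.210), Itgb2 at −0.54 (0.376) and Itgal between IF and DC at 0.55 (0.782), and 0 of 10 passed at IF 22 h, where 0.479% of all genes were lower in that fit. Itgae, which encodes CD103, was lower at IF 22 h (−1.86, adjusted p 0.0174 by edgeR), and at −1.38 without IF 22 h replicates 2 and 3. The cells were sorted on CD103, and the part of the gate in the Itgae level was not tested.

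Of 10 tested transcription factors of the homing programme, 1 was higher and 1 lower at IF 8 h and at DC 8 h, 0 and 1 at IF 22 h, and 1 and 2 at DC 22 h, beside 6.08% to 7.76% of all genes in either direction. Foxo1 and Hif1a passed in more than 1 comparison. Foxo1, known to maintain Ccr7 and Klf2 in naive T cells, fell from 322 CPM to 178, 158, 161 and 176 CPM at IF 8 h, DC 8 h, IF 22 h and DC 22 h (adjusted p 0.0117, 0.00326, 0.00434 and 0.00877 by edgeR). Its IF 22 h call was lost without IF 22 h replicates 2 and 3 (−0.88, adjusted p 0.148). Hif1a, a factor of the hypoxia response, rose from 45.2 CPM to 87.7 CPM at IF 8 h, 92.2 CPM at DC 8 h and 85.0 CPM at DC 22 h. Rara was lower at DC 22 h, the only other call of this list.

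Some of the genes that carry or end chemokine receptor signals were lower after stimulation. Of 24 tested, 9, 9, 3 and 8 were lower and 0 were higher at IF 8 h, DC 8 h, IF 22 h and DC 22 h, where 4.72%, 4.07%, 3.44% and 4.35% of all genes were lower, with median log2 fold changes of −0.44, −0.48, −0.29 and −0.47. Rasgrp2, which activates the integrin switch Rap1, fell from 140.1 CPM to 36.1, 41.6, 43.4 and 38.7 CPM in that order (adjusted p 8.08e-05, 0.000191, 0.000291 and 0.000181 by edgeR). Arrb2 (beta-arrestin, which ends receptor signals) fell from 222 CPM to 84.8 to 116 CPM. With IF 22 h replicates 2 and 3 left out, Rasgrp2 was the only gene of the 24 that still passed at IF 22 h (−1.67, adjusted p 0.0478; 0.479% of all genes lower), and Arrb2 was at −0.74 (0.292). Gnai2, the G protein subunit through which chemokine receptors signal, was lower at IF 8 h, DC 8 h and DC 22 h.

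Of 11 listed ligands of these receptors, 5 were tested. Higher and lower genes numbered 1 and 1 at IF 8 h and 1 and 0 at DC 8 h. At 22 h they numbered 0 and 1 with IF and 1 and 1 with DC. In these comparisons 6.08% to 7.76% of all genes passed in either direction. Cxcl9 was lower at IF 22 h than in unstimulated cells (−6.00, adjusted p 0.0421 by edgeR), and at −7.22 without IF 22 h replicates 2 and 3. Cxcl10, a CXCR3 ligand induced by interferon, was at 3.96 to 9.08 CPM in unstimulated libraries, 20.6 to 67.0 CPM at IF 8 h, 37.5 to 191 CPM at DC 8 h, 0.766 to 1.19 CPM at IF 22 h and 14.3 to 85.3 CPM at DC 22 h. It was lower with IF than with DC at 22 h by a log2 fold change of −5.34 ± 0.86 (SE; adjusted p 0.00249 by edgeR), the comparison in which Cxcr3 was higher with IF. Without IF 22 h replicates 2 and 3 it was at −4.99 (adjusted p 0.349). Dendritic cells also produce Cxcl10, and their part in its level was not tested.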

How the data were processed

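The authors sequenced sorted CD8+ cells with an adapted CEL-seq protocol, a 3′ tag method with barcoded oligo-dT primers, per the labels' protocols. The deposited tables hold counts per gene, whole numbers without normalization, and the submitters' processing notes name BWA and mm10. The counting program, annotation, strand and use of molecular identifiers are not given in the sources used here.

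The 7 members and all gene lists were chosen with earlier results of these data known. Tests were run with edgeR 4.0.16 under R 4.3.3. The filter filterByExpr (minimum count 10, minimum total 15) kept 10831 of 17493 genes. A quasi-likelihood model of 5 group means, TMM-scaled, was fitted to all 15 libraries, with Benjamini-Hochberg adjustment over all genes tested within each comparison and a two-sided threshold of 0.05. Fold changes are log2 with a prior count of 0.125, and intervals are 95%. Genes most like a member were the 3 with the highest Pearson correlation over 15 libraries (log2 CPM, prior count 2). In each pathway list, up to 6 genes past the threshold in at least 2 comparisons with unstimulated cells, or in an IF-DC comparison, could be named. Rara, Klf2, Fos, Jun, Cxcl9, Itgae, Itgax and Klrb1c were named after their values were seen. DESeq2 1.42.0 was an alternative test. The scripts were tested on simulated data. Pairs of replicates of a group differed by 9.50 to 98.1 times counting noise (chi-square per degree of freedom), so none was counted as a single library. Intervals and detection limits cover the model and counting error only.

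The titles use the same replicate numbers in all 5 groups and do not say whether a number is the same animal. Same-numbered libraries deviated together in every pair only for DC 8 h and DC 22 h (correlation of deviations 0.12, 0.40 and 0.24), so for DC 22 h against DC 8 h a fit of these 2 groups with the number as a block is given beside results it changes. Alternatives were another scaling, no filter, DESeq2, only the groups compared, the replicate block, thinned counts and each library left out.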

Additional observations from a re-analysis of the deposited data

Results flagged for a closer look

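At 22 h the Ccr9 differences of the 2 stimuli lay on opposite sides of 0. Against unstimulated cells it was at −0.89 with IF (adjusted p 0.000920 by edgeR), every library below the unstimulated ones, where 14.7% of all genes lay apart in that direction. With DC it was at 0.19, which did not pass (adjusted p 0.435), every library above the unstimulated ones, where 12.8% of all genes lay apart in that direction. From 8 h to 22 h the log2 fold change was −0.26 with IF, which did not pass (adjusted p 0.407), and 0.84 with DC (adjusted p 0.0126). With all 3 libraries a group, both changes from 8 h to 22 h were again without overlap, as were 9.37% of all genes as lower with IF and 6.88% as higher with DC. Without IF 22 h replicates 2 and 3, which stood apart in mitochondrial ribosomal RNA, the IF differences were −0.74 from unstimulated cells (adjusted p 0.136) and −0.099 from IF 8 h (0.977). The direct comparison of IF with DC at 22 h passed the threshold, and the interaction with time did not by edgeR (unadjusted p 3.25e-05, adjusted p 0.0879). No group had more than 3 libraries, so no test for a single library far from the others was made.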

How the results depend on the processing

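Counts of the 7 genes past the threshold moved by over 1.5 times as follows. At IF 8 h against unstimulated cells the count of 2 became 0 at an adjusted p of 0.01, 1 with library size alone, 4 without the low-count filter, and 5 with only the groups compared, with or without the replicate block (the pair of choices together was added after seeing the data). DC 8 h went from 3 to 6 (4 higher and 2 lower) and DC 22 h from 2 to 4 (3 higher and 1 lower) when libraries were scaled to the summed T cell markers, an alternative chosen after seeing the data that called 7379 and 7012 of all 10831 genes. Under that scaling IF 8 h went from 2 lower to 2 higher, IF 22 h from 3 lower to 2 higher and 1 lower, and IF against DC at 22 h from 2 higher and 1 lower to 1 higher and 2 lower, with the same totals. IF 22 h went from 3 to 1 without IF 22 h replicates 2 and 3. IF against DC at 8 h went from 0 to 1 without the filter. At 22 h it went from 3 to 1 with only the groups compared, and to 0 with the replicate block added or without IF 22 h replicates 2 and 3. IF 22 h against IF 8 h went from 1 to 0 at 0.01 and without those libraries, and to 2 with DESeq2, no filter, only the groups compared, T cell marker scaling or thinned counts. DC 22 h against DC 8 h went from 2 to 0 at 0.01, with only the groups compared and with T cell marker scaling. The interaction went from 0 to 1 with DESeq2 and with no filter. Leaving out 1 library gave 1 to 2 members at IF 8 h, 2 to 3 at DC 8 h, 2 to 3 at IF 22 h, 2 at DC 22 h, 0 for IF against DC at 8 h and 1 to 3 at 22 h, 0 to 1 from 8 h to 22 h with IF, 0 to 2 with DC and 0 to 1 for the interaction. Other counts that moved did so by 1 gene. The cause of these moves was not tested.

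Directions were followed for the 41 differences larger than their SE, over 692 alternatives, of which 14 turned. Scaling to the T cell markers, which moved the median of all genes to 1.00, 1.11, 0.73 and 1.00 in the 4 comparisons with unstimulated cells, turned 11. At IF 8 h these were Ccr7 (0.61), S1pr1 (0.41), Cd69 (0.15), Cxcr4 (0.10) and Ccr9 (0.35), and at DC 8 h S1pr1 (0.67) and Ccr9 (0.42). At IF 22 h they were Ccr7 (0.13) and S1pr1 (0.28), and at DC 22 h Ccr7 (0.71) and Cxcr3 (0.21). All of these lie below the shifted median. Library size alone, which moved the median to 0.26, 0.30, 0.22 and 0.37, turned Ccr7 at DC 22 h (0.087). Without IF 22 h replicates 2 and 3, Cxcr3 turned at IF 22 h (−0.18) and in the interaction (−0.011). Leaving out these libraries for the pathway and marker lists was chosen after seeing the data. The 22 differences no larger than their SE turned in 63 of 386 alternatives.

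With the replicate number as a block over all 15 libraries, the counts were 2, 3, 3, 2, 0, 3, 1, 2 and 0, as without it. Apart from the DC groups, same-numbered libraries of compared groups did not deviate together, and 9 of 15 libraries correlated best with one of their own number, a hint from the data and not from the design.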
